A study of Mus musculus with 12 samples.

Results

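The genes described here encode 3 adhesion molecules that stromal and vascular cells offer to leukocytes: Icam1, Vcam1 and Madcam1. They were chosen by symbol for this role, by a rule that uses no measured value, from 23329 genes listed in the deposited count tables. The choice was nonetheless made with earlier results of these data known. All 3 were among the 13038 genes tested, although Madcam1 entered the test only through the adult LPS group. Counts came from primary stromal cells of the small intestine, labelled intestinal myofibroblasts, of C57BL6/J mice at E14.5 or adulthood. Cells of both stages were grown in medium with the ROCK inhibitor Y27632 and used at passage 2 or 3, and were exposed for 6 h to LPS of Escherichia coli O111:B4, at a concentration the labels write as 10 µg/µl, a unit that may be a typing error, or to the vehicle PBS. The 4 groups (embryonic PBS, embryonic LPS, adult PBS and adult LPS) held 3 libraries each, from independent cultures of 3 adult mice or of 6 pooled embryos per culture.

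Leukocytes leave the blood by rolling on selectins and then holding fast through integrins. ICAM-1 is bound by the β2 integrins LFA-1 (Itgal with Itgb2) and Mac-1 (Itgam with Itgb2), VCAM-1 by the α4β1 integrin (Itga4 with Itgb1), and MAdCAM-1, the gut mucosal addressin of endothelium and lymphoid stroma, by α4β7 (Itga4 with Itgb7). Inflammatory signals that activate NF-kB are known to induce all 3 genes, and fibroblastic stromal cells can carry ICAM-1 and VCAM-1 besides endothelium.

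In the RefSeq annotation of GRCm38.p6, Icam1 lies on chromosome 9 at 21015940 to 21028814, Vcam1 on chromosome 3 at 116110020 to 116129688, and Madcam1 on chromosome 10 at 79664559 to 79668542. Their longest RefSeq-matched transcripts hold 7 exons and 2535 bases, 9 exons and 3469 bases, and 5 exons and 1436 bases. Antisense genes overlap Icam1 and Vcam1, and reads on the strand of each gene were counted. RefSeq promoter sequences of 2 members, Icam1 and Madcam1, are shown because the genes of NF-kB subunits were among those that moved with LPS. The promoter set used held no entry for Vcam1, whose promoter was therefore not searched. Each run is the 250 bases before the annotated start, 5′ to 3′ on the plus strand, at chr9:21015690-21015939 and chr10:79664309-79664558, with matches to any of 3 motifs in capitals.
Icam1: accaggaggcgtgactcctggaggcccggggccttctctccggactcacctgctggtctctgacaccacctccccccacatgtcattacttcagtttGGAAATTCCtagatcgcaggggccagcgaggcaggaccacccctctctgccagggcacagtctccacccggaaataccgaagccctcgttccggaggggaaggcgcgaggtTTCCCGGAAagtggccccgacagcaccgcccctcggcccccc
Madcam1: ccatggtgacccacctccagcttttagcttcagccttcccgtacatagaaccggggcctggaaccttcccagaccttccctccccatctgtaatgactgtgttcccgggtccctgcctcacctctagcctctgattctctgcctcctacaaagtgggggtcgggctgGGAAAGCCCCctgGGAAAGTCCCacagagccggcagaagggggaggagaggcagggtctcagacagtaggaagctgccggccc
The NF-kB consensus, searched on both strands by its usual degenerate letters, matched the Madcam1 window at -83 to -74 and at -70 to -61, counted back from the start. It matched nowhere in the Icam1 window, and 7.28% of 32534 RefSeq promoter windows of this length held a match. The consensus begins with GGG, so it could not match a stretch that begins with GGA. The other 2 motifs were chosen after the sequences were seen. GGANNTTCC, held by 3.59% of windows, matched Icam1 at -153 to -145 and Madcam1 at -70 to -62, inside its consensus match. TTCNNNGAA, held by 7.04% of windows, matched Icam1 at -42 to -34. These matches describe letters only.

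Libraries held 18850224 to 32672370 counts assigned to genes, so that 3 counts, taken as the detection floor, equalled 0.0897 to 0.145 CPM (counts scaled to library size after TMM normalization). Markers of the labelled cells were abundant: 7 fibroblast markers summed to 8104 to 23477 CPM and 7 myofibroblast markers to 14941 to 36983 CPM. Other cells were present in some cultures. The sum of 14 macrophage markers was highest in the embryonic libraries numbered 3, at 2822 CPM with PBS and 2083 CPM with LPS, against 185 to 1018 CPM in the other embryonic libraries and 53.6 to 210 CPM in adult libraries, and no macrophage marker was at 0 throughout a group. The sum of 12 endothelial markers was highest in the adult libraries numbered 2 (1872 CPM with PBS and 1802 CPM with LPS), followed by those numbered 3 (405 and 376 CPM), and was 17.6 to 40.7 CPM in the 8 other libraries. The endothelial marker Cldn5 was at 0 in all embryonic libraries and in adult LPS libraries 1 and 3, and held at most 49 counts in any library. Another marker of that list, Kdr, was at 7.39 to 29.5 CPM in embryonic and 6.74 to 16.8 CPM in adult libraries. In such bulk samples, fewer cells of a type and less RNA per cell cannot be told apart.

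Icam1, the ligand of LFA-1 and Mac-1, was present in all libraries and higher with LPS in every culture. Embryonic PBS libraries 1 to 3 held 19.0, 54.9 and 29.9 CPM, and the embryonic LPS libraries of the same numbers 433, 459 and 1306 CPM. Adult PBS libraries held 67.6, 168 and 61.0 CPM, and adult LPS libraries 681, 1053 and 699 CPM. The PBS and LPS values did not overlap within either stage, and the lowest LPS value lay above the highest PBS value of either stage. Group means were 34.6 ± 18.4 CPM in embryonic PBS, 732 ± 496 in embryonic LPS, 99.0 ± 60.2 in adult PBS and 811 ± 210 in adult LPS (SD, n = 3 each).

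Vcam1, the ligand of α4β1, was also higher with LPS in every culture. Embryonic PBS libraries 1 to 3 held 12.1, 56.0 and 21.4 CPM, and embryonic LPS libraries 442, 496 and 947 CPM. Adult PBS libraries held 93.5, 188 and 120 CPM, and adult LPS libraries 1641, 1615 and 1916 CPM. None of the 4 groups overlapped: every adult PBS value lay above every embryonic PBS value, and every adult LPS value above every embryonic LPS value. The share of all tested genes whose groups separated like those of Icam1 or Vcam1 is not given here. Tests between the stages follow below. Means were 29.9 ± 23.1, 628 ± 278, 134 ± 48.7 and 1724 ± 167 CPM (SD, n = 3 each) in embryonic PBS, embryonic LPS, adult PBS and adult LPS.

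Madcam1, the ligand of α4β7, was at the edge of detection. Raw counts were 1, 1 and 0 in the embryonic PBS libraries and 35, 6 and 34 in the embryonic LPS libraries, and 0 in each adult PBS library against 20, 19 and 26 in the adult LPS libraries. Counts above the floor of 3 were thus found in all 6 LPS libraries and in no PBS library. Mean levels with LPS were 0.918 ± 0.617 CPM in embryonic and 0.786 ± 0.294 CPM in adult cultures (SD, n = 3 each). Per kb of transcript, the mean with LPS was 0.639 CPM in embryonic cultures, where Icam1 reached 289 and Vcam1 181 CPM per kb, and 0.548 CPM in adult cultures, where they reached 320 and 497 CPM per kb.

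**Figure D1:**
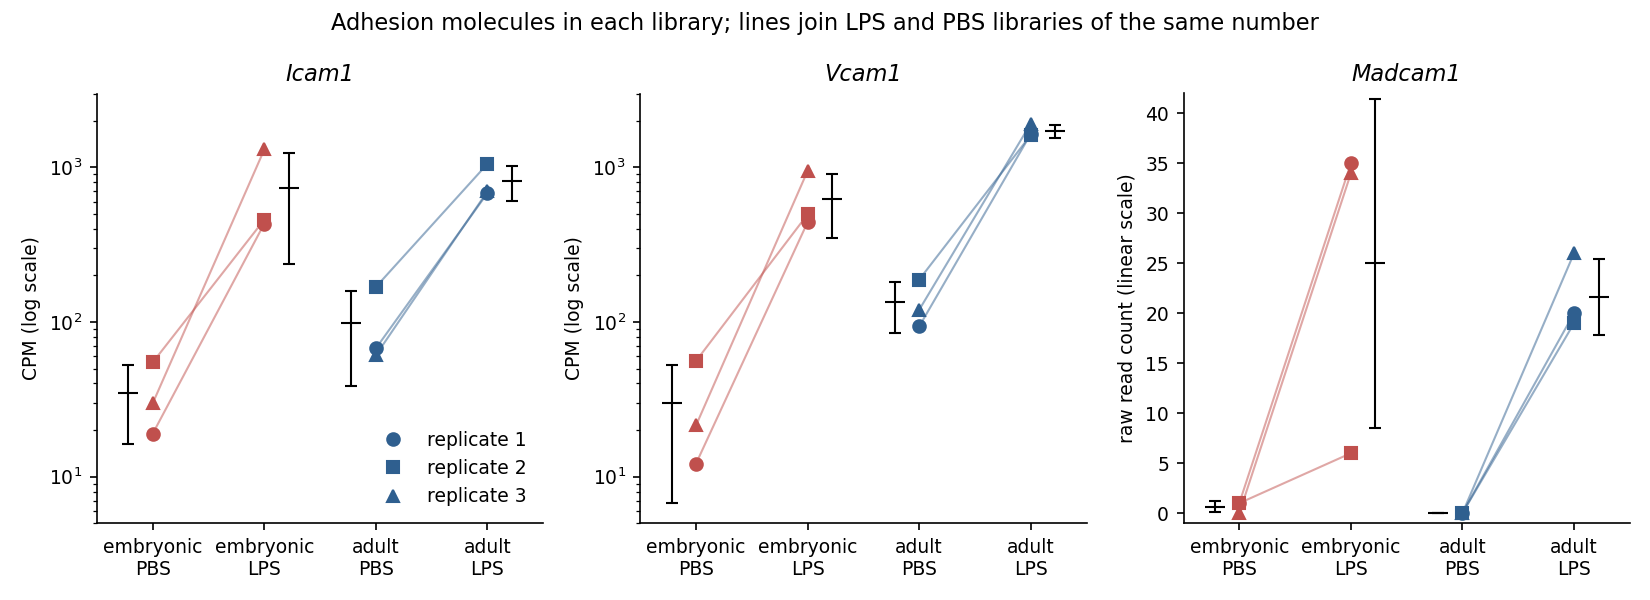
Levels of Icam1 and Vcam1 (CPM, log axis) and raw counts of Madcam1 (linear axis) in each of the 12 libraries, with lines joining LPS and PBS libraries of the same stage and number; black marks give the group mean and SD (n = 3). All 3 genes were higher with LPS in every same-numbered pair, and Madcam1 was at 0 or 1 count in the 6 PBS libraries.

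With LPS, all 3 genes rose in embryonic stroma. In adult stroma Vcam1 rose, and Icam1 passed once the culture was accounted for. Group means of Icam1 were 21.2-fold higher with LPS in embryonic and 8.19-fold higher in adult cultures, and those of Vcam1 21.0-fold and 12.9-fold. In the quasi-likelihood test of edgeR with Benjamini-Hochberg adjustment, 3 of 3 members passed (adjusted p under 0.05) as higher in embryonic stroma, where 2.67% of the 13038 tested genes did, and in adult stroma, where 0.598% did, 1 of Icam1 and Vcam1 passed. Madcam1 is left out of the adult count, since it was tested only because all 3 adult LPS libraries exceeded the filter, against 0 of 3 adult PBS libraries. The embryonic log2 fold change was 4.41 ± 0.63 (SE) for Icam1, with adjusted p = 0.00603, and 4.40 ± 0.58 for Vcam1, with adjusted p = 0.00391. In adult stroma it was 3.69 ± 0.56 for Vcam1 (adjusted p = 0.0178) and 3.03 ± 0.59 for Icam1, which missed the threshold at adjusted p = 0.0584. Madcam1 passed in embryonic stroma (adjusted p = 0.0276) and missed in adult stroma (adjusted p = 0.0584). Because its adult PBS libraries were all at 0, its adult difference is stated as a bound, at least 6.61-fold higher with LPS against a floor of 3 counts per library. In embryonic cultures its 75 LPS counts against 2 PBS counts gave a ratio of 44.8 per unit of depth, with an exact 95% interval of 12 to 377 that covers counting error only.

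LPS and PBS libraries of 1 stage and number deviated together from their group means, and a fit with the culture as a block was therefore set beside the first. With this replicate block, Icam1 and Vcam1 passed in both stages and Madcam1 in embryonic stroma, where 9.43% of genes passed as higher in embryonic and 4.69% in adult stroma. Icam1 reached 3.16 ± 0.41 with adjusted p = 0.00363 in adult stroma. The adult adjusted p of Madcam1 was 0.0145, with the limit of its filter as above. Blocked values of Vcam1 were 4.60 ± 0.48 in embryonic stroma (adjusted p = 0.000631) and 3.75 ± 0.45 in adult stroma (adjusted p = 0.00255).

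The size of the rise differed between cultures of 1 stage. Icam1 was 22.8-, 8.37- and 43.7-fold higher with LPS in embryonic cultures 1 to 3, and 10.1-, 6.25- and 11.5-fold higher in adult cultures 1 to 3. Vcam1 was 36.4-, 8.86- and 44.2-fold higher in embryonic and 17.6-, 8.60- and 16.0-fold higher in adult cultures. In both stages the cultures numbered 2 held the highest PBS level and the smallest fold of each gene. Madcam1 had its lowest LPS count, 6, in embryonic culture 2 as well.

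Several calls without the block were lost or gained when 1 library was left out. The log2 fold changes meanwhile ranged from 4.73 to 5.70 for embryonic Madcam1 and from 3.49 to 4.02 for adult Vcam1. Without 1 of the embryonic PBS libraries 1, 2 and 3, the embryonic LPS libraries 1 and 3, or the adult LPS library 1, the embryonic call of Madcam1 was lost, at adjusted p = 0.126, 0.0818, 0.0902, 0.0528, 0.0954 and 0.0530 in that order. The adult call of Vcam1 was lost without adult PBS library 1, 2 or 3 (adjusted p = 0.122, 0.0709 and 0.151) and without adult LPS library 1 or 3 (adjusted p = 0.0574 and 0.0648). Conversely, adult Icam1 passed without embryonic LPS library 3 (adjusted p = 0.0221), and adult Madcam1 without embryonic LPS library 2 (adjusted p = 0.0203). The embryonic calls of Icam1 and Vcam1 held with each of the 12 libraries left out in turn, but not in a fit of the 6 embryonic libraries alone (adjusted p = 0.107 and 0.109).

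The LPS differences within a stage were also computed without the culture that held most RNA of another cell type, an alternative added after the marker sums were seen. Without both embryonic libraries numbered 3, where macrophage markers were highest, Icam1 was at 3.57 ± 0.65 (adjusted p = 0.0319) and Vcam1 at 3.75 ± 0.65 (adjusted p = 0.0265) in embryonic stroma. Madcam1 then missed the threshold at adjusted p = 0.229, and passed with the replicate block at adjusted p = 0.0298. Without both adult libraries numbered 2, where endothelial markers were highest, the adult values were 3.42 ± 0.66 for Icam1 and 4.05 ± 0.72 for Vcam1, both above those of all libraries. Neither passed without the block (adjusted p = 0.151 and 0.119), and with it Icam1 and Vcam1 passed at adjusted p = 0.0148 and 0.00992. The blocked adjusted p of Madcam1 was 0.0318, with the limit of its filter as above.

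Whether LPS acted differently on the 2 stages was asked of the interaction between stage and treatment. No member passed: the embryonic minus adult difference of log2 fold changes was 1.37 ± 0.78 (SE) for Icam1 and 0.71 ± 0.71 for Vcam1, with adjusted p = 1.00 for both and for Madcam1. In this fit 0% of the 13038 genes passed, 293 were at an unadjusted p under 0.05, and DESeq2 called 25 genes and none of the members. With the replicate block 0.844% of genes passed, and the differences were 1.18 ± 0.55 for Icam1 (adjusted p = 0.604) and 0.85 ± 0.59 for Vcam1 (adjusted p = 0.761). The adjusted p of Madcam1 was then 0.806. A larger embryonic than adult fold of Icam1 or Vcam1 was therefore not shown, and these standard errors do not show equal folds.

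Compared directly, Vcam1 was lower in embryonic than in adult stroma with PBS, at the threshold. The adult mean was 4.48-fold the embryonic mean with PBS and 2.74-fold with LPS, and for Icam1 these ratios were 2.86 and 1.11. Of the members 1 of 3 passed as lower in embryonic stroma with PBS, where 2.57% of genes did, and 0 of 3 with LPS, where 2.27% did. With PBS, the embryonic against adult log2 fold change was -2.16 ± 0.53 for Vcam1 (adjusted p = 0.0495) and -1.52 ± 0.56 for Icam1 (adjusted p = 0.165). With LPS, it was -1.46 ± 0.51 for Vcam1, which missed at adjusted p = 0.130 (unadjusted p = 0.0172) but passed without embryonic PBS library 2 (adjusted p = 0.0482), and -0.15 ± 0.55 for Icam1 (adjusted p = 0.915). DESeq2 called Vcam1 with LPS (adjusted p = 0.0356) and Icam1 with PBS (adjusted p = 0.0490). The call of Vcam1 with PBS remained with embryonic PBS library 2 or embryonic LPS library 3 left out, and was lost without any of the other 10 libraries, at adjusted p of 0.0552 to 0.143. Madcam1 was not separable between the stages, at adjusted p = 0.525 with PBS and 0.890 with LPS. Markers of other cells moved with stage as well. Endothelial sums averaged 27.7 and 39.2 CPM in embryonic PBS and LPS libraries against 767 and 732 CPM in adult ones, and sums of 5 mesothelial markers 340 and 317 CPM against 852 and 830 CPM. Adult culture 1 held an endothelial sum of 23.1 CPM with PBS and 17.6 CPM with LPS, near the embryonic range of 18.6 to 40.7 CPM, with Vcam1 at 93.5 and 1641 CPM. Single endothelial markers of this culture went both ways. Its Cdh5 (0.879 and 1.43 CPM) and Tie1 (0.440 and 0.163 CPM) lay above all embryonic libraries (at most 0.350 and 0.0598 CPM). Its Vwf (0.403 and 0.293 CPM) and Prox1 (0.256 and 0.456 CPM) lay below all of them (at least 0.736 and 0.640 CPM). The mesothelial sums of adult culture 1, 1375 and 1424 CPM, were the highest of all libraries. Among embryonic PBS libraries, library 2 held the highest Vcam1, the highest Icam1 and the highest mesothelial sum (736 CPM, against 140 and 145 CPM). Among embryonic LPS libraries, library 2 again held the highest mesothelial sum (649 CPM), but its Vcam1 (496 CPM) was below that of library 3 (947 CPM). The part of these cells in the Vcam1 level was not tested.

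The balance of Vcam1 to Icam1 within a library, which needs no scaling between libraries, was examined after these levels were seen. Per kb of transcript, Vcam1 reads per Icam1 read were 0.467, 0.746 and 0.524 in embryonic PBS libraries 1 to 3 and 0.745, 0.790 and 0.530 in embryonic LPS libraries. They were 1.01, 0.814 and 1.43 in adult PBS libraries and 1.76, 1.12 and 2.00 in adult LPS libraries. Icam1 was thus the more abundant transcript in all 6 embryonic libraries, and Vcam1 in 5 of 6 adult libraries, the exception being PBS library 2. The adult minus embryonic difference of the log2 ratio was 0.90 with PBS and 1.22 with LPS, and neither pair of groups overlapped. Exact two-sided permutation tests gave p = 0.1 for each, the smallest that 3 against 3 allows, and 0.15 after adjustment over 3 tests. Within pairs, LPS minus PBS changes of the log2 ratio were 0.58 ± 0.19 in adult and 0.26 ± 0.36 in embryonic cultures (SD, n = 3 each), a difference of 0.32 (exact two-sided permutation p = 0.3, where no outcome could go below 0.1).

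**Figure D2:**
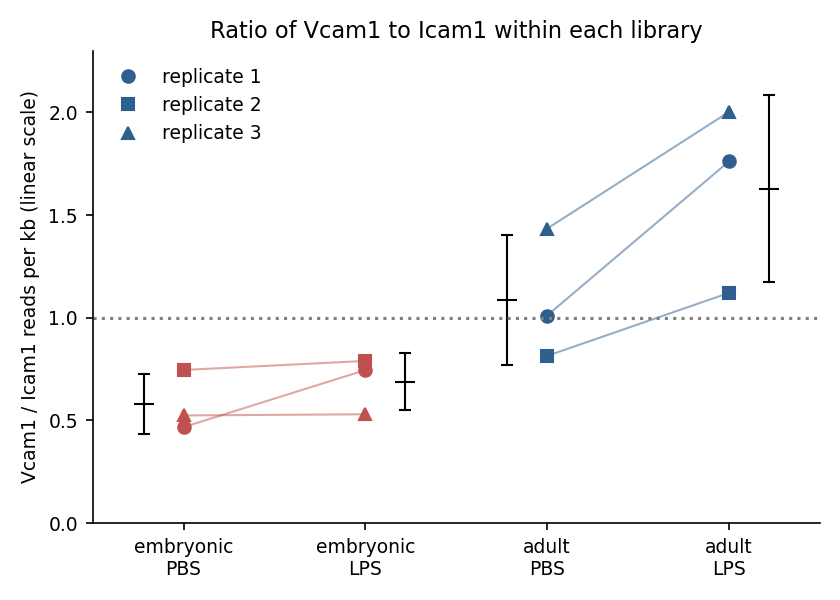
Ratio of Vcam1 to Icam1 reads per kb of transcript (linear axis) in each library by group, with lines joining same-numbered libraries and black marks for the mean and SD (n = 3); the dotted line marks a ratio of 1. Embryonic libraries lay between 0.467 and 0.790 and adult libraries between 0.814 and 2.00.

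Across the 12 libraries, log2 CPM of Icam1 and Vcam1 correlated with a Pearson r of 0.968, and their deviations from the group means with 0.858. Madcam1 correlated with Icam1 at 0.872 and with Vcam1 at 0.821, but its deviations from group means at 0.241 and 0.222. These values describe 12 libraries that share their treatment groups and cultures. The 5 tested genes most like Icam1 were F830016B08Rik (0.978), Hivep1 (0.976), Ccl2 (0.974), Vcam1 (0.968) and Ccl7 (0.965), of which Ccl2 and Ccl7 encode chemokines that attract monocytes. Those most like Vcam1 included Il18rap (0.969), Ccl2 (0.968), Icam1 (0.968) and Nfe2l1 (0.965). For Madcam1 they included Cxcl3 (0.970), a neutrophil chemokine, Daam1 (0.969), Ripk2 (0.953) and Csf2 (0.95), which encodes GM-CSF.

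Other genes tied to leukocyte adhesion, among them transcription factors, were read from 6 lists with 67 tested genes. These lists were written with earlier results of these data known. With LPS 10 of them rose in embryonic and 7 in adult stroma (against 2.67% and 0.598% of the genes tested), with no fall in either, while 21 and 17 of 67 reached an unadjusted p under 0.05 in either direction. Of these rises, 6 embryonic and 5 adult ones were of transcription factors, and 4 and 1 of other adhesion molecules. The further adult rise was that of Tnfsf11, which was tested only through the adult LPS group. Sele, among the rises of both stages, and Icam5, among the embryonic ones, were tested only through LPS groups. Over the 67 genes the median log2 fold change was 0.26 (embryonic) and 0.08 (adult), against medians within 0.01 of 0 over all tested genes. With the replicate block 21 embryonic and 17 adult rises were called (9.43% and 4.69% of all tested genes), and 1 adult fall. The embryonic count was 3 without embryonic PBS library 1. The adult count was 1, 0 and 0 without adult PBS library 1, 2 or 3 (16, 16 and 14 at an unadjusted p under 0.05), and 3 and 4 without adult LPS library 1 or 3.

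Among the 23 tested genes of other adhesion molecules, 4 rose in embryonic and 1 in adult stroma (against 2.67% and 0.598% of the genes tested). Sele, the E-selectin that slows rolling leukocytes, rose in both stages. Sele was tested only through its LPS groups, as neither PBS group exceeded the filter throughout, which limits both calls and the counts above. It held 1, 1 and 0 counts in embryonic PBS libraries and 11.7, 5.49 and 22.1 CPM in embryonic LPS libraries 1 to 3 (adjusted p = 0.0105), a ratio of pooled counts of 635 with an exact 95% interval of 175 to 5254 that covers counting error only, not the spread between cultures. In adult cultures it held 0.0366, 5.30 and 2.39 CPM with PBS and 191, 211 and 138 CPM with LPS, a log2 fold change of 6.15 ± 1.02 (adjusted p = 0.0257). Every adult LPS value of Sele lay above every embryonic one, but no test between stages is given for it. The part of endothelial cells in these Sele levels was not tested. Cx3cl1, a membrane-bound chemokine, rose in embryonic stroma from a mean of 17.8 ± 8.75 to 209 ± 164 CPM (SD, n = 3 each; log2 fold change 3.56 ± 0.70 SE, adjusted p = 0.0239). In adult stroma its means were 22.6 ± 9.92 and 97.6 ± 20.0 CPM (adjusted p = 0.363 without the block and 0.0378 with it). Alcam, the list's gene of highest mean CPM, did not pass in either stage (0.37 ± 0.86 and -0.22 ± 0.86).

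Icam5, the neighbour of Icam1 on chromosome 9 (21032038 to 21039036) known from neurons, rose in embryonic stroma at far lower counts. Like Sele, Icam5 was tested only through its LPS groups, which limits its calls. It held 6 to 8 counts in embryonic PBS and 23 to 63 in embryonic LPS libraries (log2 fold change 2.66 ± 0.45, adjusted p = 0.0122), and 11 to 15 and 53 to 69 counts in adult PBS and LPS libraries (2.05 ± 0.43, adjusted p = 0.0740 without and 0.00938 with the block). Icam4, between them at 21029432 to 21030596, held at most 13 counts in any library and was not tested. Whether reads running on from Icam1 entered these counts was not tested.

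**Figure D3:**
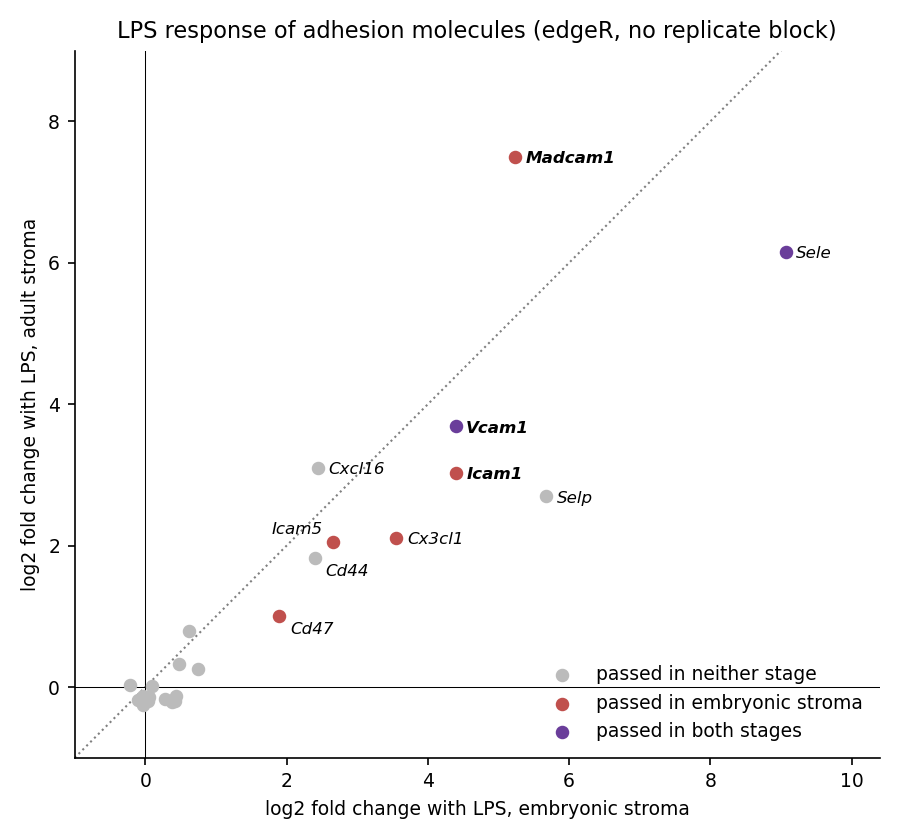
Log2 fold change with LPS in embryonic (horizontal) against adult (vertical) stroma for the 3 members (bold) and 23 other adhesion molecules, coloured by the edgeR call at adjusted p under 0.05 without the replicate block; the dotted line marks equal change. The members and Sele lay far from 0 in both stages, as did Selp, Cxcl16, Cx3cl1, Icam5 and Cd44.

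Some adhesion genes were chosen for naming after their values were seen. Selp, the P-selectin, passed under the replicate block in both stages (adjusted p = 0.00231 and 0.00266) and not without it (0.263 and 1.00). In adult LPS libraries it held 46.8, 1574 and 335 CPM beside endothelial sums of 17.6, 1802 and 376 CPM in libraries 1 to 3, and in embryonic LPS libraries 2.98, 4.35 and 16.6 CPM beside sums of 36.9 to 40.7 CPM. Icam1 (681, 1053 and 699 CPM), Vcam1 (1641, 1615 and 1916 CPM) and Sele (191, 211 and 138 CPM) spanned narrower ranges over the same 3 adult libraries. The part of endothelial cells in any of these levels was not tested. Cd44, the hyaluronan receptor, and Cxcl16, a transmembrane chemokine, were also called with the block, at 2.72 and 2.68 in embryonic (adjusted p = 0.00984 and 0.000761) and at 1.87 and 3.20 in adult stroma (0.0500, just under the threshold, and 0.000739). Cd47, which restrains uptake by macrophages, rose in embryonic stroma by 1.90 without the block (adjusted p = 0.0277), and passed in adult stroma with it (1.00, adjusted p = 0.0174).

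**Figure D4:**
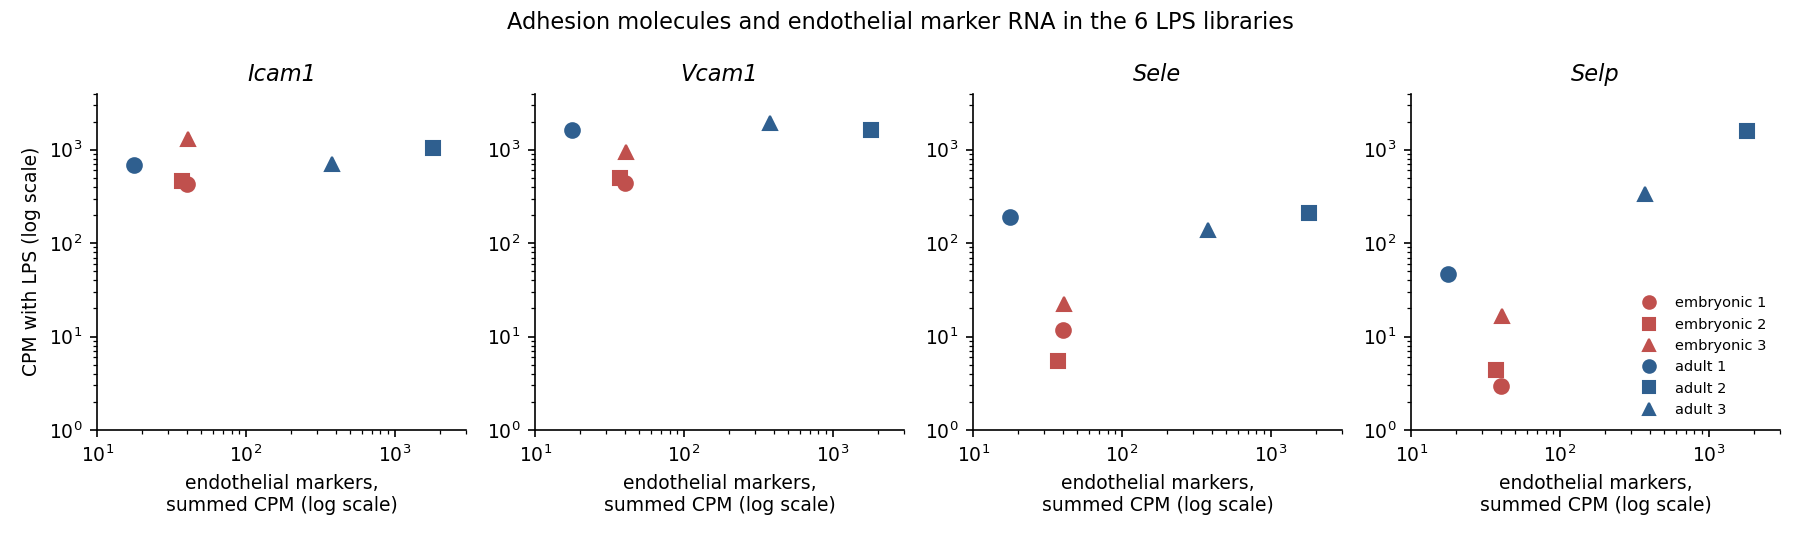
Level with LPS (CPM, log axis) of Icam1, Vcam1, Sele and Selp against the summed CPM of 12 endothelial markers (log axis) in the 3 embryonic and 3 adult LPS libraries. Over adult sums from 17.6 to 1802 CPM, Selp ranged from 46.8 to 1574 CPM and Vcam1 from 1615 to 1916 CPM.

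Counter-receptors, the leukocyte integrins and ligands that bind these molecules, showed no call without the block in edgeR, with 1 of 8 tested genes at an unadjusted p under 0.05 in embryonic and 0 in adult stroma, and 1 and 0 called by DESeq2. With the block 2 of 8 rose in embryonic and 1 of 8 in adult stroma, against 9.43% and 4.69% of all tested genes. These were Itgal (1.83 and 1.12, adjusted p = 0.000159 and 0.0357), and Itga4 in embryonic stroma (2.63, adjusted p = 0.0211). Itgb1, the β1 chain that stromal cells also use to hold matrix, had the highest mean CPM of the list and differed with LPS by less than its error (0.02 ± 0.15 in embryonic and -0.09 ± 0.15 in adult stroma, adjusted p = 0.999 and 1.00). Itgb7, the partner of Itga4 in the MAdCAM-1 receptor, held at most 8 counts in any library and was not tested. Macrophage marker sums were highest in embryonic cultures 2 and 3. Those of embryonic culture 1 (235 CPM with PBS and 185 CPM with LPS) were near those of adult culture 1 (199 and 210 CPM). Itgal had means of 24.7 and 90.9 CPM with PBS and LPS in embryonic cultures against 1.2 and 2.55 CPM in adult cultures. The part of macrophages in the Itgal levels was not tested.

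Genes that act inside the cell on these molecules were then read. Of 11 tested transcription factors of the members' promoters, 6 rose in embryonic and 5 in adult stroma (against 2.67% and 0.598% of the genes tested) and 0 fell, with medians of 1.12 and 0.98. Irf1 rose by 4.19 ± 0.65 in embryonic (adjusted p = 0.00871) and by 3.53 ± 0.64 in adult stroma (adjusted p = 0.0425). The NF-kB subunit genes Relb (2.71 ± 0.29 and 2.05 ± 0.29), Nfkb2 (2.54 ± 0.29 and 2.15 ± 0.29) and Nfkb1 (2.4 ± 0.30 and 2.19 ± 0.29) also rose in both stages, with adjusted p from 0.00188 to 0.0128. The 2 further calls in embryonic stroma were Rela and Rel, and the further call in adult stroma was Rela. Nkx2-3, a homeobox factor of gut mesenchyme on which gut MAdCAM-1 is known to depend, was named after its value was seen: it fell in adult stroma with the block (-0.79, adjusted p = 0.00496) and not without it (adjusted p = 0.132).

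Linkers to actin and enzymes that shed adhesion molecules passed in few cases. None of 13 linkers and none of 8 sheddases and inhibitors passed in either stage without the block in edgeR, with 1 and 2 of them at an unadjusted p under 0.05 in embryonic stroma and 1 and 1 in adult stroma. DESeq2 called 1 linker in each stage, and no sheddase in embryonic and 1 in adult stroma. With the block, 9.43% of all tested genes passed as higher in embryonic and 4.69% in adult stroma. Beside these shares 1 of 13 linkers (7.69%) passed in each stage. The protease gene Mmp9 passed with the block in embryonic and adult stroma (2.62 and 4.76, adjusted p = 0.00505 and 0.0029). Adam17, a sheddase of many surface proteins, passed with the block in embryonic stroma (0.64, adjusted p = 0.00196). The gene of highest mean CPM on each list, the actin crosslinker Flna and the protease inhibitor Timp3, differed by 0.01 ± 0.25 and -0.09 ± 0.35 in embryonic stroma, and by 0.05 ± 0.25 and -0.20 ± 0.35 in adult stroma.

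Of 9 genes of lymphoid tissue organiser stroma, 4 were tested, of which 1 passed in adult stroma and none in embryonic stroma in edgeR (1 at an unadjusted p under 0.05, and none in DESeq2). Tnfsf11, which encodes RANKL, rose in adult stroma from 9, 3 and 6 to 309, 93 and 77 counts in libraries 1 to 3 (log2 fold change 4.54 ± 0.71, adjusted p = 0.0215). As with Madcam1, this gene was tested only because the adult LPS libraries exceeded the filter, which limits its adult call. It held 3, 1 and 0 counts with PBS and 5, 11 and 6 with LPS in embryonic libraries (adjusted p = 0.218). Its interaction with stage did not pass (adjusted p = 1.00 without and 0.698 with the block). Pdpn, the podoplanin gene and that of highest mean CPM on the list, differed by 0.47 ± 0.98 in embryonic and 0.23 ± 0.98 in adult stroma, and passed in embryonic stroma with the block (0.40, adjusted p = 0.0235). The chemokine genes Ccl19 and Ccl21a held at most 9 and 0 counts in any library.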

How the data were processed

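Poly(A) RNA of primary cultures was sequenced as 12 stranded single-end libraries. The authors trimmed the reads and aligned them by STAR to GRCm38.p6, with no more than 1 mismatch and unique placement, and deposited raw, unnormalized counts for each gene. The counting annotation is not given in the sources used here. Counts on the strand of the gene were used; the opposite strand held 1.14 to 1.98% of both. Per 100 gene counts, rows naming no gene held 1.35 to 3.10 unmapped, 10.2 to 11.5 multimapping, 9.16 to 10.5 featureless and 0.366 to 0.472 ambiguous reads, and were left out.

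In R 4.3.3, edgeR 4.0.16 was fitted to 13038 genes with CPM above 0.5 in all samples of a group, in 1 model of 4 groups with TMM factors, by the quasi-likelihood test with Benjamini-Hochberg adjustment. Factors and library sizes were recomputed after the filter, a choice made after both outputs were seen and listed among the alternatives. A standard error is the log2 fold change over the square root of F. Same-stage, same-number libraries deviated together (r = 0.610 to 0.850 in 6 pairs), so that LPS and PBS libraries were taken as paired by the numbers in the labels, and a block on the culture was fitted as an alternative; across stages r was -0.306 to -0.002. Log2 CPM used a prior count of 2. Replicates are separate cultures per the paper.

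The members and lists were chosen with earlier results of these data known. Named genes were the members, up to 3 passed genes of largest change and the most abundant gene of each adhesion list, and the 5 genes most correlated with each member; other names were added after values were seen, and some genes are not reported here. Of 79 listed adhesion genes, 78 were found, 2 of them (Nectin2 and Nectin3) under older symbols, and 67 were tested. Promoters were taken from RefSeq for GRCm38.p6. Scripts were tested on simulated data. Alternatives were DESeq2 1.42.0, other size factors, filters, strands and thresholds, blocks, the 2 groups alone and left-out libraries. Figures were drawn with matplotlib 3.10.9.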

Additional observations from a re-analysis of the deposited data

How the results depend on the processing

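Directions of the LPS results were the same under every alternative run, and no alternative gave an interaction for a member. With the replicate block within stage, genes passed on the adhesion lists numbered 21 and 18 in embryonic and adult stroma, and adult Icam1 (3.16) and Madcam1 (7.56) passed; with a culture also left out these were 18 (embryonic 3) and, for adult 2, 13 genes, 3.42 and 7.72. The block changed no other call of a member. Fitted values of Madcam1 depend on the prior count, and its adult passes carry the limit of its filter given above. Fitting only the 2 groups compared, Icam1 (4.39) and Vcam1 (4.38) missed in embryonic stroma, Icam1 (3.03) and Madcam1 (7.41) passed in adult stroma, and Vcam1 with PBS (-2.17) missed between stages. Vcam1 with PBS also missed with no filter (-2.16) and counts on both strands (-2.17), where adult Madcam1 (7.50) passed. DESeq2 passed adult Icam1 (3.02) and Madcam1 (6.75), Icam1 with PBS (-1.52) and Vcam1 with LPS (-1.45) between stages. Without embryonic culture 3 Madcam1 (4.37) missed, and without adult culture 2 Vcam1 (4.05) missed and 0 listed genes passed in edgeR (14 at an unadjusted p under 0.05). The causes were not tested.

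Leaving out 1 library, the embryonic LPS values ranged from 3.67 to 4.91 (Icam1), 3.95 to 5.23 (Vcam1) and 4.73 to 5.70 (Madcam1), with 3 to 12 listed genes passed, and the adult values from 2.78 to 3.66, 3.49 to 4.02 and 7.19 to 7.66, with 0 to 9. Interactions ranged from 0.64 to 1.88, 0.27 to 1.54 and -2.75 to -1.80. Between stages, values ranged with PBS from -2.03 to -0.89, -3.0 to -1.79 and 2.14 to 2.98, and with LPS from -0.89 to 0.12, -1.90 to -1.26 and -0.12 to 0.70. Icam1 with LPS changed sign without embryonic LPS library 1 (0.12) or 2 (0.10) or adult LPS library 2 (0.09), and Madcam1 without embryonic LPS library 1 (-0.04) or 3 (-0.12). A replicate block across stages, where numbers did not pair libraries, gave 564 and 531 genes lower in embryonic stroma with PBS and LPS (335 and 296 without it) and changed no call of a member (Vcam1 with PBS -2.27, adjusted p = 0.0248). RLE size factors, the log2 fold threshold of 2 and unfiltered normalization factors changed no call of a member, levels moved by less than the replicate SD, and the numbers of promoter matches were the same over the whole window. A filter of CPM above 1 left out Madcam1 and changed no call of Icam1 or Vcam1. Counts of 0 to 35 limit Madcam1, whose folds rest on few reads.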
